A study of Mus musculus with 3 samples.

Results

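The MYC and MAX network is a small family of transcription factors that pair through a shared helix-loop-helix and leucine zipper domain. Its 10 genes were examined in RNA pulled down by anti-YTHDF2 from mouse embryonic stem cells (ESCs), out of 49997 genes in the count table. They were taken by symbol, namely Myc, Mycn, Mycl, Max, Mlx, Mxi1, Mxd1, Mxd3, Mxd4 and Mnt. All 10 had at least 37 counts in every library and all 10 passed the filter on low counts, which left 19601 genes. Among them 6 were higher in the YTHDF2 immunoprecipitation (IP) than in the input, 1 was lower and 3 did not pass the test, where 28.5% of all tested genes were higher and 30.1% lower. Mycl was the 1 member that was enriched over 2-fold, at 2.27-fold, as were 15.2% of all tested genes, and Mlx was the 1 member that was lower, at 1.65-fold.

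RNA immunoprecipitation sequencing (RIP-seq) was performed with an antibody to YTHDF2, a cytoplasmic reader of N6-methyladenosine (m6A) that promotes decay of the RNA it binds. The cells were of the E14 line, and all 3 libraries, 1 input and 2 IP, came from ESCs given doxycycline (Dox) for 24 h. No cells without Dox were sequenced in this series, so the effect of Dux induction on these genes is not part of the comparison. Per the description of the cell system in the study, the cells carry a Dox-inducible Dux transgene, which drives ESCs toward a state like the 2-cell (2C) embryo, and a tdTomato reporter under the MERVL promoter. How many of the cells reached that state in these libraries was not given in the sources used here. No control-antibody IP was analyzed here, so RNA held by the beads or by any antibody is not separated from RNA held by YTHDF2.

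The libraries held between 35259827 and 36986994 counts. The input was sequenced once, so the error in each p-value comes from differences between the 2 IP libraries, shared in part over all genes. Beyond the modeled counting noise, the coefficient of variation common to all tested genes was 7.33%. The spread between inputs was not measured. Nothing in the labels says whether the 2 IP libraries came from separate cultures, so the spread between them may be technical. All 10 markers of ESCs were present in the input, as were all 6 markers of the 2C-like state, whose sum in counts scaled by library size (CPM) was 1683 for the input, 2788 for IP replicate 1 and 2778 for IP replicate 2. Of 7 fibroblast markers, 3 reached 1 CPM in the input, and the list summed to between 34.4 and 37.1 CPM. Within it, Thy1 had 26.9 CPM in the input and less in both IP libraries (14.1 and 15.1 CPM), Pdgfrb had 6.79 CPM and more in both (21.2 and 17.4 CPM), and Col3a1 and Dcn were at 0 in every library. The 4 neural markers, mostly Tubb3, had an input sum of 87.5 CPM and IP sums of 180 and 171 CPM. The 5 trophoblast markers had an input sum of 105 CPM and IP sums of 131 and 120 CPM, of which Tfap2c made up 80.0 CPM in the input against 76.8 and 66.9 CPM and Eomes 24.9 CPM against 53.6 and 51.9 CPM, with Elf5 at 0 in the input. The 5 endoderm markers had sums of 8.49, 15.1 and 9.45 CPM. The part of these marker genes in the results was not tested. Since the cells were a mixed culture, fewer cells with a transcript and less of it per cell cannot be told apart.

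MYC, MYCN and MYCL bind the E box of target promoters only as partners of MAX, and they raise transcription of genes for growth and ribosome synthesis. MXD1, MXD3, MXD4, MXI1 and MNT also pair with MAX and bring corepressors to the same sites, so the balance of partners sets the output. MLX is the center of a sister branch and pairs with MXD1, MXD4, MNT and the glucose-responsive factors MLXIP and MLXIPL. In ESCs, Myc lies downstream of leukemia inhibitory factor, the cytokine in their medium, and MYC proteins support self-renewal, while MYC transcripts as a class are known for short half-lives.

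The coding sequence of the basic region, with which these proteins touch the E box, shows what the members have in common. Capitals mark the codons of the residues that make the specific base contacts, in sense orientation, read from the mm10 genome with the RefSeq gene models. Myc lies at chr15:61989657-61989701, Mycl at chr4:123000270-123000314 and Mlx at chr11:101088660-101088704, all on the plus strand, and Mycn at chr12:12937207-12937251 and Max at chr12:76953220-76953264 on the minus strand. In Mxi1 the sequence is joined over an intron within chr19:53346452-53369557, on the plus strand.
Myc: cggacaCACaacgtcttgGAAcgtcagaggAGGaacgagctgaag
Mycn: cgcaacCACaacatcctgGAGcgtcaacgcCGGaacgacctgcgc
Mycl: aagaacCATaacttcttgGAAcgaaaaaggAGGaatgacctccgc
Max: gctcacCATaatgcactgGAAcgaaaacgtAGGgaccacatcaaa
Mxi1: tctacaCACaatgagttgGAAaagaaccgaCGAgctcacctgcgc
Mlx: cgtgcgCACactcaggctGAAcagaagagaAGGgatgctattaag

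YTHDF2 binds m6A, which is placed most often on the A of GGAC and related sequences, so the densest coding stretch of GGAC is shown for the highest and the lowest member in the IP and for the member with the densest stretch. Each window is 90 bases of coding sequence in sense orientation with GGAC in capitals. That of Mycl, in chr4:122996517-122996606 on the plus strand, held 3. That of Mlx, joined over introns within chr11:101089284-101089722 on the plus strand, also held 3. That of Mxd1, joined over an intron within chr6:86651051-86651502 on the minus strand, held 5. Of 20997 genes with a coding sequence, 29.5% had a 90-base coding window with at least 3 GGAC and 0.976% had one with at least 5.
Mycl: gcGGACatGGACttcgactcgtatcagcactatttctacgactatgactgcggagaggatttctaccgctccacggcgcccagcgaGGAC
Mlx: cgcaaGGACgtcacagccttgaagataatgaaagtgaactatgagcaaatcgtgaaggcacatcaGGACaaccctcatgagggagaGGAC
Mxd1: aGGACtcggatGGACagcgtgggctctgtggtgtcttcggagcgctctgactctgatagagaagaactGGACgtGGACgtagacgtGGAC
These windows leave out most of each transcript. Over the full coding transcript, untranslated parts included, Mycl held 23 GGAC (6.96 per kb), Mlx 9 (4.56 per kb) and Mxd1 24 (5.15 per kb). Whether the windows bear on the IP values was not tested. A GGAC in the sequence does not show that it was methylated, and the counts per gene do not show where on a transcript YTHDF2 was bound.

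Levels were compared between members as CPM per kilobase of exon. In the input, Max and Mycn were the most abundant members, at 53.4 and 52.9 CPM per kb. Mlx followed at 16.2 and Mxi1 at 11.9 CPM per kb. Mnt, Mxd3 and Myc lay close together at 8.02, 7.01 and 6.81 CPM per kb, and Mycl at 3.52. The lowest were Mxd1 and Mxd4, at 1.89 and 1.58 CPM per kb. With 1 input, the order of close neighbors there has no replicate check. In the IP libraries the order can be set against their spread: the ranges of Max and Mycn overlapped, as did those of Myc and Mxd3 and those of Mxd1 and Mxd4, and no other neighbors in the order overlapped. The order also rests on the length used. Merged exons are longer than the coding transcript for example in Mxi1 (4678 and 2639 bases), Mnt (6473 and 4586) and Max (2621 and 2005), but not in Myc and Mycn.

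**Figure D1:**
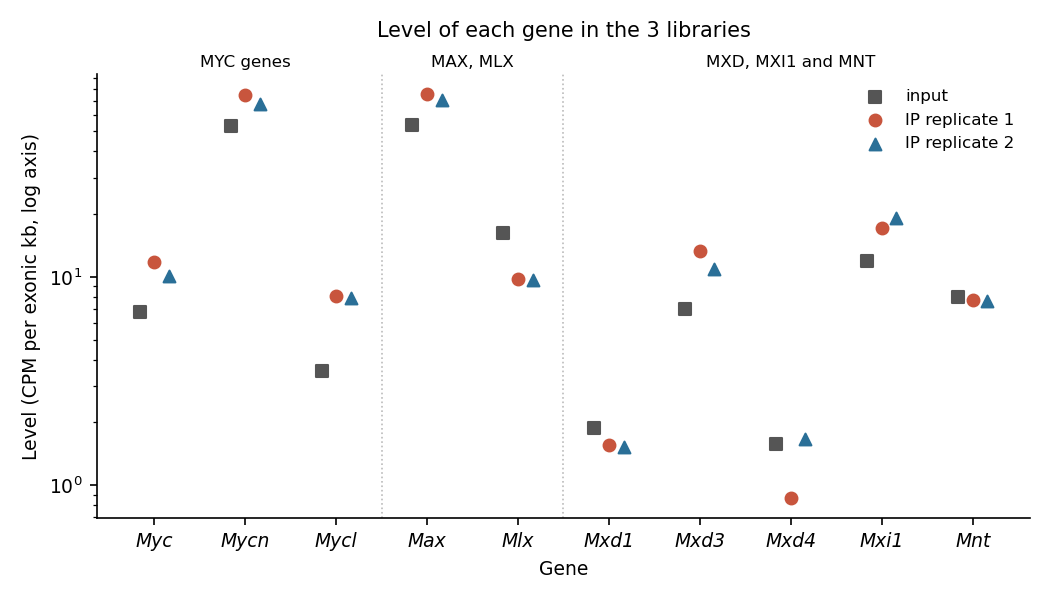
Level of each member in CPM per exonic kb (log axis) in the input (squares), IP replicate 1 (circles) and IP replicate 2 (triangles), by role. Max and Mycn stood highest in all 3 libraries, from 52.9 to 75.2 CPM per kb, and Mxd1 and Mxd4 lowest, from 0.87 to 1.89 CPM per kb.

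The 3 MYC genes were all higher in the IP. Mycl, the family member first found in lung cancer, had 485 input counts, against 1133 and 1130 counts in IP replicates 1 and 2. Both IP libraries lay above the input by nearly the same margin, with log2 ratios of 1.19 and 1.17. The fitted log2 fold change was 1.18 ± 0.137 (SE, 1 input and 2 IP libraries), with an adjusted p of 4.46e-12 (edgeR quasi-likelihood, Benjamini-Hochberg over all tested genes, as for all members). Myc, the founding member and an early-response gene, had 578 input counts and 1023 and 883 IP counts. Its log2 fold change was 0.68 ± 0.139 (adjusted p = 1.52e-05), and the gap of 0.23 between its 2 log2 ratios was smaller than either ratio. Mycn, the main MYC gene of ESCs by level here, had 4860 input counts and 7037 and 6427 IP counts. Its log2 fold change was 0.43 ± 0.0684 (adjusted p = 7.27e-08), the smallest of the MYC genes.

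The least abundant MYC gene thus had the highest ratio of IP to input and the most abundant the lowest. Summed per kb, the MYC genes had an input level of 63.3 and IP levels of 95.0 and 85.6 CPM per kb, mostly from Mycn. The share of Mycn in that sum was 83.7% in the input, as against 79.1% and 79.0% in the IP libraries, and that of Mycl was 5.56% in the input and 8.48% and 9.25%. In level per kb, Mycn stood 15.0 times above Mycl in the input and 9.33 and 8.54 times above it in the IP libraries.

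Max and Mlx, the obligate partners at the center of the 2 branches, went in opposite directions. Max had 4947 input counts and 7114 and 6794 IP counts, both above the input. Its log2 fold change was 0.45 ± 0.0668 (adjusted p = 1.03e-08), close to that of Mycn, and the Max to Mycn ratio per kb stayed between 1.00 and 1.05 in all 3 libraries. That ratio used 2621 exonic bases for Max, whose coding transcript has 2005, so it does not show equal amounts. Mlx had 1461 input counts and 907 and 908 IP counts, both below the input. Its log2 fold change was -0.73 ± 0.11 (adjusted p = 2.13e-08), at percentile 24.8 among all tested genes, and its 2 log2 ratios differed by 0.019. Per kb, Max exceeded Mlx 3.30-fold in the input and 7.65-fold and 7.30-fold in the IP libraries. The exons of Mlx overlap those of Psmc3ip, on the opposite strand, by 67 bases, and the counting did not use strand.

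The genes of the MAX partners that repress did not move together. Mxi1 had 1968 input counts and 2890 and 3290 IP counts, and its log2 fold change was 0.61 ± 0.0865 (adjusted p = 3.2e-09). Mxd3, whose expression is known to peak in S phase, had 393 input counts and 760 and 632 IP counts, with a log2 fold change of 0.78 ± 0.163 (adjusted p = 2.21e-05). For both, each IP library lay above the input. Mnt, the broadly expressed repressor that opposes MYC in cycling cells, had 1835 input counts and 1805 and 1809 IP counts. Its log2 fold change was -0.06 ± 0.0934 (adjusted p = 0.591), a difference smaller than its SE. It was above 0 under 2 of the other scalings, at 0.034 and 0.089, and further below 0 with the trend of all genes on GC content or on exons per kb removed, at -0.49 and -0.39.

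Mxd1 and Mxd4, known for their rise as cells leave the cycle and differentiate, were the members with the fewest counts. Mxd1 had 317 input counts and 267 and 263 IP counts, both below the input, with a log2 fold change of -0.30 ± 0.208 (adjusted p = 0.217). Mxd4 had 66 input counts and 37 and 72 IP counts, so the input lay between them. Its 2 log2 ratios were -0.86 and 0.07, and its log2 fold change of -0.32 ± 0.447 (adjusted p = 0.567) had the widest error of the network. A difference of that size was not detectable for Mxd4 at this depth. Per kb, Mxi1 stood 1.48 times above Mnt in the input and 2.22 and 2.52 times above it in the IP libraries. Exons of Mxi1 overlap an opposite-strand gene, Gm30541, by 230 bases and those of Mxd3 overlap Prelid1 by 103 bases, and reads of these pairs were not separated by strand.

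**Figure D2:**
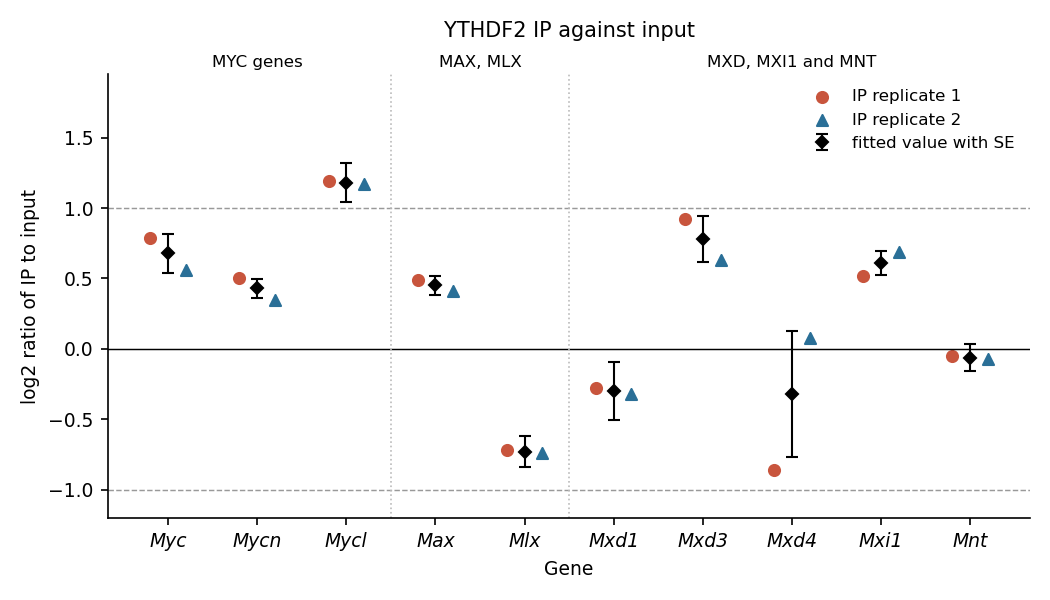
Log2 ratio of IP to input for each member in IP replicate 1 (circles) and IP replicate 2 (triangles), with the fitted log2 fold change and its SE (diamonds) and dashed lines at a 2-fold change. Mycl lies above the upper line at 1.18, Mlx is lowest of the members past the test at -0.73, and the 2 ratios of Mxd4 fall on either side of 0.

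Enrichment over 2-fold was no more frequent in the network than among all genes. The number of members enriched at an adjusted p under 0.05 and a fold change over 2 was 1 of 10, where 15.2% of all tested genes were enriched, and 0 of 10 were depleted, where 14.0% of all genes were. Without the fold threshold, 6 of 10 members were higher in the IP, beside 28.5% of all tested genes, and 1 of 10 was lower, beside 30.1%. Passing without that threshold depends on counts, and the members lay at percentiles 32.6 to 91.6 of input level. The median log2 fold change of the 10 members was 0.44 and that of all tested genes 0.01. Most members thus lay in the moderate range, and even Mycl stood at percentile 83.0 of all log2 fold changes.

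These calls rest on a spread taken from 2 libraries. At a fixed dispersion of 0.1, in the place of the one estimated, no member passed, and the adjusted p of Mycl by the likelihood ratio test of edgeR was 0.159. Removing the trend of all genes on exonic GC content, or that on exons per kb, left Mycl at 0.83 and 0.99 on the log2 scale, no longer over 2-fold in either. Without the GC trend, Myc was at 0.45, Mycn at 0.16, Max at 0.28, Mxi1 at 0.33, Mxd3 at 0.24, Mxd1 at -0.45, Mxd4 at -0.91 and Mlx at -0.83. Without the trend on exons per kb, Myc was at 0.36, Mycn at 0.09, Max at 0.32, Mxi1 at 0.46, Mxd3 at 0.81, Mxd1 at -0.62, Mxd4 at -0.07 and Mlx at -0.75. No member changed sign in these, and the values were not tested anew.

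The members shared some features of sequence that the choice by symbol did not use. GGAC, searched on the transcribed strand of the merged exons, occurred at 4.17 to 6.93 per kb in the 10 members, all above the median of 3.94 per kb of 19552 tested genes, of which 98.3% held at least 1. Mycl had the highest density, 27 GGAC or 6.93 per kb, at percentile 92.5. In its coding transcript 10 of them lay in the coding sequence and 13 in the 3′UTR. Myc came next at 5.42 per kb, and it was the member with the most GGAC in the 5′UTR, 5 of 13. Mxd1 was close behind at 5.28 per kb, with 10 in the coding sequence and 14 in a long 3′UTR of 3827 bases. Mnt and Mxd4 had the lowest densities, 4.17 and 4.24 per kb, followed by Mlx at 4.30.

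Across the 10 members the density of GGAC and the log2 fold change correlated (Pearson r = 0.61, Spearman rho = 0.58), beside 0.20 and 0.24 over all tested genes. Mycl had the highest value on both axes and stood apart in its density of GGAC, and over the other 9 members r was 0.34 and rho 0.42. The genes share the same 3 libraries, so these are descriptions. GC content was also above the median of 49.7% in all 10, from 50.3% in Mlx (percentile 53.2) to 60.0% in Mxd4 (percentile 95.7). The r of GC content with the log2 fold change was 0.33 over the members and 0.27 over all genes. Exons per kb, which in many mRNAs runs against m6A, had an r of -0.34 over the members, -0.19 without Mycl and -0.16 over all genes. The 3 MYC genes have 3 exons each and from 0.77 to 1.25 exons per kb, below the median of 2.47, whereas Mlx has 8 exons and 3.13 per kb. Other members depart from that order. Mxd3 has 3.78 exons per kb with a log2 fold change of 0.78, and Max 2.67 with one of 0.45. Mnt and Mxd1 have few, 1.08 and 1.27 exons per kb, with log2 fold changes of -0.06 and -0.30.

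**Figure D3:**
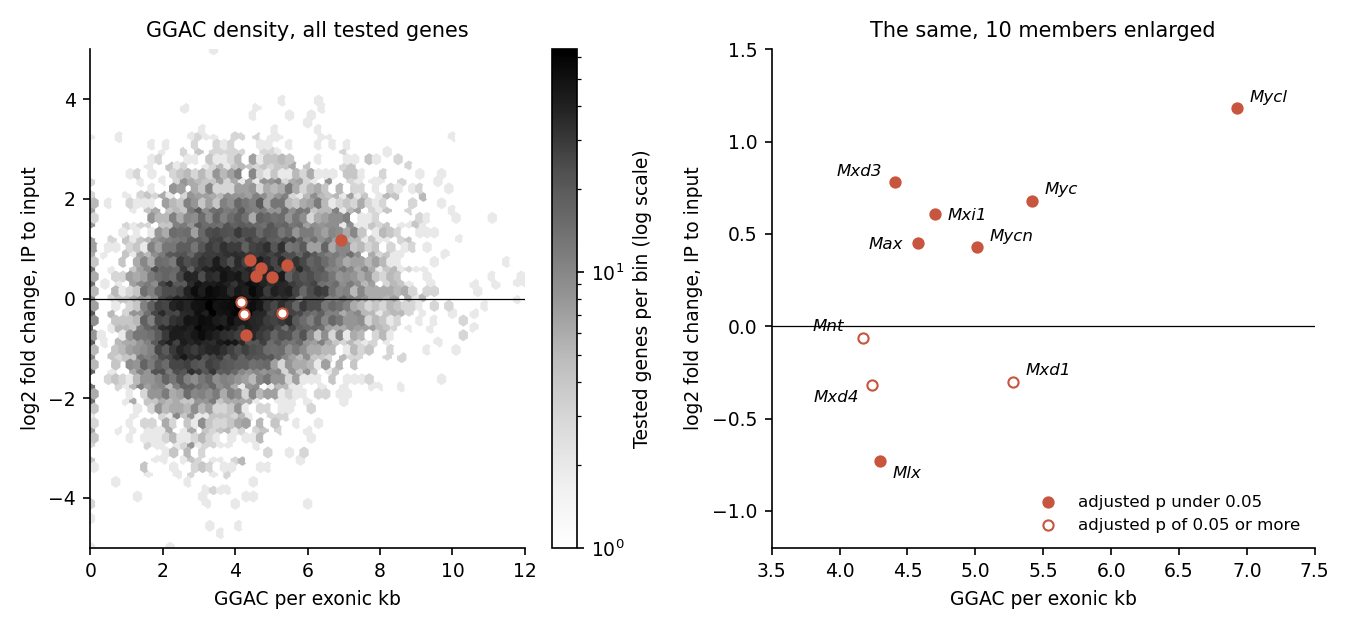
GGAC per exonic kb (x axis) against the log2 fold change of IP to input (y axis), for all tested genes as bins shaded by number of genes with the members as circles (left) and for the members alone on enlarged axes (right). Mycl stands at the upper right with 6.93 GGAC per kb, while Mxd1, at 5.28 per kb, lies at -0.30.

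The genes are spread over 8 chromosomes. On mm10, Myc is at chr15:61985341-61990361, Mycl at chr4:122995588-123002490 and Mxi1 at chr19:53310128-53373293, on the plus strand. Mycn, at chr12:12936093-12941836, and Max, at chr12:76937269-76962323, lie on the same chromosome far apart, both on the minus strand. Mlx is at chr11:101086707-101092207 and Mnt at chr11:74830806-74845725, on the plus strand. Mxd1 is at chr6:86647044-86669234, Mxd3 at chr13:55325170-55329900 and Mxd4 at chr5:34176580-34187710, on the minus strand. Counts are over the merged exons of each gene, from 1179 bases in Mxd4 to 6473 bases in Mnt.

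Further partners and relatives of the network had log2 fold changes from -0.64 to 2.33. Bmyc, a rodent relative of Myc that lacks the DNA-binding domain, had 596 input counts and 3048 and 3127 IP counts. This was a log2 fold change of 2.33 ± 0.108 (adjusted p = 3.84e-32), or 5.04-fold, above that of any of the 10 members. Mlxip, the MLX partner also called MondoA, had 2113 input counts and 3415 and 3276 IP counts and a log2 fold change of 0.62 ± 0.0831 (adjusted p = 4.71e-10), so MLX and this partner lay on opposite sides of the input. Mga, the MAX partner of the polycomb-like complex that silences germ cell genes in ESCs, was lower in the IP, with 2687 input counts and 1671 and 1866 IP counts and a log2 fold change of -0.64 ± 0.0875 (adjusted p = 9.11e-10). Mlxipl, known as ChREBP, had 154 input counts and 128 and 190 IP counts, on either side of it (log2 fold change 0.01 ± 0.286, adjusted p = 0.986). Mycs, a further rodent paralog, had 0 counts in every library, which allows up to between 0.0811 and 0.0851 CPM for counting error only. Pvt1, the long noncoding RNA beside Myc, had 304 input counts and 295 and 304 IP counts, with a log2 fold change of -0.06 ± 0.204 (adjusted p = 0.816) that also turned above 0 under 2 scalings.

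Proteins that work with the network were taken in 4 further lists. Apart from Tert and Ccnd2, their genes lay at percentile 60.9 or more of the input level of tested genes. Passing the adjusted p depends on counts, so the shares of all tested genes at any fold are not from genes of like level. Over these lists, the outer partners and Pvt1, 88 genes were tested. Of them 9 were enriched (10.2%, beside 15.2% of all tested genes) and 17 were depleted (19.3%, beside 14.0%), with a median log2 fold change of -0.32. With the GC trend removed 5 were enriched and 20 depleted, and at a fixed dispersion of 0.1, 3 and 9. Of 16 corepressor genes, the SIN3, NCOR and HDAC proteins that MXD and MNT recruit, 3 were enriched (18.8%) and 5 depleted (31.2%), and 5 were higher and 10 lower at any fold (28.5% and 30.1% of all tested genes), with a median of -0.53, or -0.35 with the GC trend removed. The enriched genes were Ing2, Ing1 and Brms1, accessory subunits of SIN3 complexes, at 4.85-fold, 3.03-fold and 2.47-fold. The lowest were Hdac1, a catalytic deacetylase, at 4.86-fold lower, and Rbbp7 and Rbbp4, histone-binding subunits, at 3.69-fold and 3.31-fold lower. Hdac1 had 9705 input counts and 1974 and 2133 IP counts, a log2 fold change of -2.28 ± 0.0683 (adjusted p = 5.6e-44).

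Of 12 coactivator and cofactor genes, 2 were enriched and 2 depleted, 16.7% each, close to the 15.2% and 14.0% of all tested genes, and 6 were higher and 6 lower at any fold, beside 28.5% and 30.1% of all genes. Cdk9, the kinase that releases paused RNA polymerase, had 4957 input counts and 22722 and 22840 IP counts, a log2 fold change of 2.16 ± 0.0604 (adjusted p = 6.05e-46). The acetyltransferase gene Kat2a followed at 2.23-fold and Zbtb17, which encodes the MYC partner MIZ1, at 1.38-fold. Ruvbl1, an ATPase of the TIP60 complex, was 2.05-fold lower, the SWI/SNF subunit gene Smarcb1 was lower by 1.00 on the log2 scale, just past the threshold, and Ruvbl2 was 1.38-fold lower. The median of this list, -0.02, changed sign under other scalings and was -0.24 with the GC trend removed.

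Of 17 genes for proteins that set the stability of MYC, 2 were enriched (11.8%, beside 15.2% of all tested genes) and 4 were depleted (23.5%, beside 14.0%). At any fold 6 were higher (28.5% of all genes), 7 were lower (30.1% of all genes) and 4 did not pass the test, with a median log2 fold change of -0.14 that turned to 0.015 when libraries were scaled by sums per exonic kb and was -0.012 with the GC trend removed. Fbxw7, the ubiquitin ligase subunit that marks phosphorylated MYC for destruction, had 2158 input counts and 6049 and 5878 IP counts, a log2 fold change of 1.43 ± 0.0772 (adjusted p = 4.11e-28). Ppp2r5a, a regulatory subunit of the phosphatase PP2A, was 2.29-fold higher, and the scaffold gene Axin1 was 1.64-fold higher. Cip2a, an inhibitor of PP2A that protects MYC, was 4.18-fold lower, the kinase gene Gsk3a was 2.77-fold lower, and Usp28, a deubiquitinase that opposes FBXW7, was 2.48-fold lower.

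Of 38 textbook targets of MYC, 1 was enriched (2.63%, beside 15.2% of all tested genes) and 6 were depleted (15.8%, near the 14.0% of all tested genes). At any fold 8 were higher and 27 lower, where 28.5% and 30.1% of all genes were, and the median log2 fold change was -0.46, or -0.26 with the trend on exons per kb removed and -0.31 when libraries were scaled by sums per exonic kb. E2f2, a cell cycle transcription factor, was the enriched one at 2.15-fold. The ribosome synthesis genes Nop16 and Nop56 were 1.70-fold and 1.30-fold higher. Dkc1, the pseudouridine synthase of small nucleolar RNPs, was 4.57-fold lower and Tfrc, the transferrin receptor, 4.43-fold lower. Npm1, which encodes the abundant nucleolar protein nucleophosmin, had 102574 input counts and 43657 and 45578 IP counts, a log2 fold change of -1.24 ± 0.0418 (adjusted p = 8e-41).

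**Figure D4:**
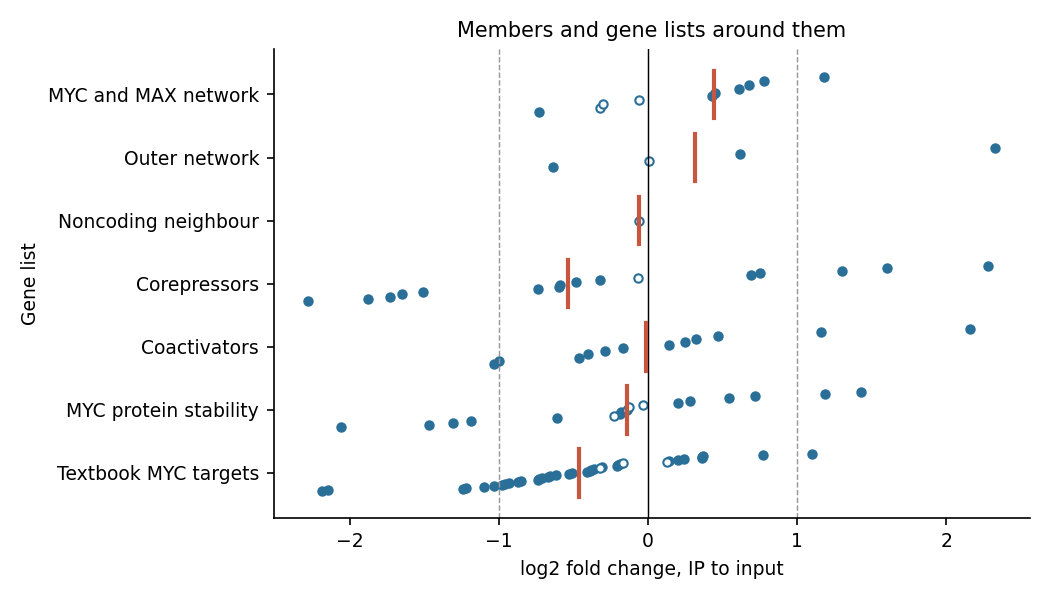
Log2 fold change of IP to input for the 10 members and for the genes of each list (filled, adjusted p under 0.05; open, 0.05 or more), with the median as a bar and dashed lines at a 2-fold change. The median of the members is 0.44 and that of the MYC targets is -0.46, and Bmyc stands out in the outer network at 2.33.

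Genes with a pattern like that of Myc or Max were found by Euclidean distance over 3 values, the log2 CPM of the input and the 2 log2 ratios. Nearest to Myc were Rab6b at a distance of 0.0644, Ptprj at 0.0854 and Slc37a1 at 0.0938. Rab6b, for example, had 16.2 CPM in the input beside 16.3 CPM for Myc, and log2 ratios of 0.76 and 0.61. Nearest to Max were B4galt6 at 0.0808, Zfp568 at 0.0834 and Slc20a2 at 0.0851. Slc20a2 had 139 CPM in the input beside 140 CPM for Max, and log2 ratios of 0.41 and 0.43.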

How the data were processed

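RIP-seq of Dox-treated E14 mouse ESCs was used, with 1 input and 2 IP libraries grouped by their titles. Per the methods of the study, anti-YTHDF2 was added to a cleared cell lysate, whereas the labels describe an IP of Trizol-extracted RNA. The deposited values are raw counts per gene, made by the authors from reads aligned to mm10 with HISAT2 2.2.1 and counted, per the file headers, over RefSeq exons with featureCounts 2.0.3. Both mates of a pair were counted and strand was not used, so sampling noise exceeds that implied by the counts. Trimming with fastp 0.19.4 and DESeq2 1.40.2 are listed in the submitters' processing notes.

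Counts were analyzed in R 4.3.3 with edgeR 4.0.16 (filterByExpr, TMM, robust quasi-likelihood F test, Benjamini-Hochberg over 19601 genes), and genes were called at an adjusted p under 0.05 and a fold change over 2. The model has 1 residual degree of freedom. CPM used TMM-scaled library sizes, except the floor of 3 counts and the marker values and sums, which used totals. Ratios of single libraries were taken after adding 0.5 to each count. Fitted values used a prior count of 0.125. Genome sequence was that of GRCm38.p6, in which all 10 members had the start and end of the table.

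The members and lists were chosen with earlier results of these data known. All tested genes of the outer partners and of the noncoding neighbors were named, and from each other list the 3 highest and 3 lowest with a mean of at least 10 CPM. For Myc and Max the 3 nearest genes were named. The script was tested on simulated data. Alternatives covered scaling, DESeq2 1.42.0, dispersion, filtering, halved counts, trends on GC and exons per kb, the fold threshold and each IP library left out. There were 0 columns of other samples.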

Additional observations from a re-analysis of the deposited data

How the results depend on the processing

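The direction of 8 members was the same under all 12 alternatives, and Mnt and Mxd4, which did not pass the test, changed sign in some. At a fixed dispersion of 0.1 the 7 members past the test no longer passed: Myc at 0.68 (adjusted p = 0.45), Mycn at 0.43 (0.653), Mycl at 1.18 (0.159), Max at 0.45 (0.634), Mxi1 at 0.61 (0.503), Mxd3 at 0.79 (0.377) and Mlx at -0.73 (0.385), by the likelihood ratio test of edgeR. The 7 other alternatives with a test of their own left them past it. At that dispersion 0 members, 3 list genes and 1577 of all genes were enriched, and 9 list genes and 1531 of all genes were depleted. With a trend on GC content removed, 0 members, 5 list genes and 2768 of all genes were enriched, 20 list genes and 2257 of all genes were depleted, and the coactivator median was -0.24, and with a trend on exons per kb removed, 0 members were enriched. At any fold change, 6 members and 5588 genes were higher and 1 member and 5899 genes lower. The log2 fold change of Mnt was 0.034 with total counts and 0.089 with sums per exonic kb, scalings that raised the median of all genes by 0.10 and 0.15. Pvt1 was at 0.035 and 0.089 in these and 0.17 without the GC trend. The coactivator median was 0.078 and 0.13 in these and 0.0065 without a filter, and the stability median 0.015 per kb. With 1 IP library left out, Mxd4 ranged from -0.86 to 0.075, Mycl from 1.17 to 1.20, Mnt from -0.071 to -0.048 and Mlx from -0.74 to -0.71, and the coactivator median from -0.051 to 0.019. No paired analysis was possible because there was only 1 input library, with no replicate number. Unreplicated input limits all values, and counts under 100 limit Mxd4.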
